A study of Rattus norvegicus with 23 samples.

Results

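The mitochondrial ribosomal protein genes were followed in lung tissue from male rats after they breathed eucalyptus wood smoke or filtered air. They were taken by name, as every protein-coding row whose symbol starts with Mrpl or Mrps followed by a digit, which gave 73 of the 19249 genes in the table. Of these, 70 had a mean of at least 10 normalized counts over the 22 libraries and were tested together with the other genes, 14414 in all. By role, 26 of the 73 belong to the small ribosomal subunit and 46 to the large one. The last, Mrps36, carries the family name but is now known as a component of the 2-oxoglutarate dehydrogenase complex. The genes lie on 18 chromosomes of the rn6 build. Rows for mrpl9, mrpl11 and mrpl24 are written in lower case in the table, fall outside the rule and are given separately.

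Frozen pieces of lung, about 35 mg each, were used for RNA sequencing, and each library came from 1 rat. The groups were filtered air (7 libraries), low smoke with a target carbon monoxide concentration of 10 ppm (8 libraries) and high smoke with a target of 20 ppm (7 libraries). The schedule over 2 weeks was of 4 exposure days, then 3 days without exposure and then another 3 exposure days. No library was enriched for a cell type, so fewer cells of a type and less RNA per cell cannot be told apart.

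Mitochondria keep a small genome that encodes core subunits of the respiratory chain and ATP synthase. These proteins are made inside the organelle by a dedicated ribosome, the mitoribosome, whose RNAs come from the mitochondrial genome while all of its proteins are encoded in the nucleus, made in the cytosol and imported. The small subunit holds the messenger RNA and decodes it, and the large subunit joins the amino acids and releases the chain next to the inner membrane. Many of the proteins have relatives in bacterial ribosomes, and others were added in the mitochondrial lineage. In the lung, alveolar type 2 cells, which make surfactant, and ciliated cells are known for their many mitochondria.

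In high smoke against air, 10 of the 70 members tested rose (14.3%) and 1 fell (1.43%), while 9.21% of all genes tested rose and 7.05% fell. The genes that rose were Mrps34, Mrps11, Mrpl15, Mrpl32, Mrps18a, Mrpl34, Mrpl43, Mrpl4, Mrpl20 and Mrps31, with log2 differences of 0.33 to 0.93, and the gene that fell was Mrpl23. Here and below, rose and fell mean a limma adjusted p below 0.05 over all 14414 genes, and differences are on the log2(value + 1) scale. The other 59 did not pass. By sign alone, 45 members (64.3%) were above air, against 49.6% of all genes, and the median member difference was 0.09 against −0.002 for all genes. An unadjusted p below 0.05 was found for 22 members (31.4%), close to the 30.7% of all genes. The exact Wilcoxon rank-sum test called 3 members (4.29%), against 5.18% of all genes. None of the 70 had high smoke and air values that did not overlap, a pattern seen in 1.87% of all genes tested. With every library scaled to the same total in place of the deposited scaling, 8 members rose (11.4%), without Mrpl4 and Mrps31, against 6.2% of all genes. In that scaling 3 fell (4.29%), Mrpl23, Mrps28 and Mrps30, against 12.5% of all genes, and the median of all genes moved to −0.08.

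**Figure D1:**
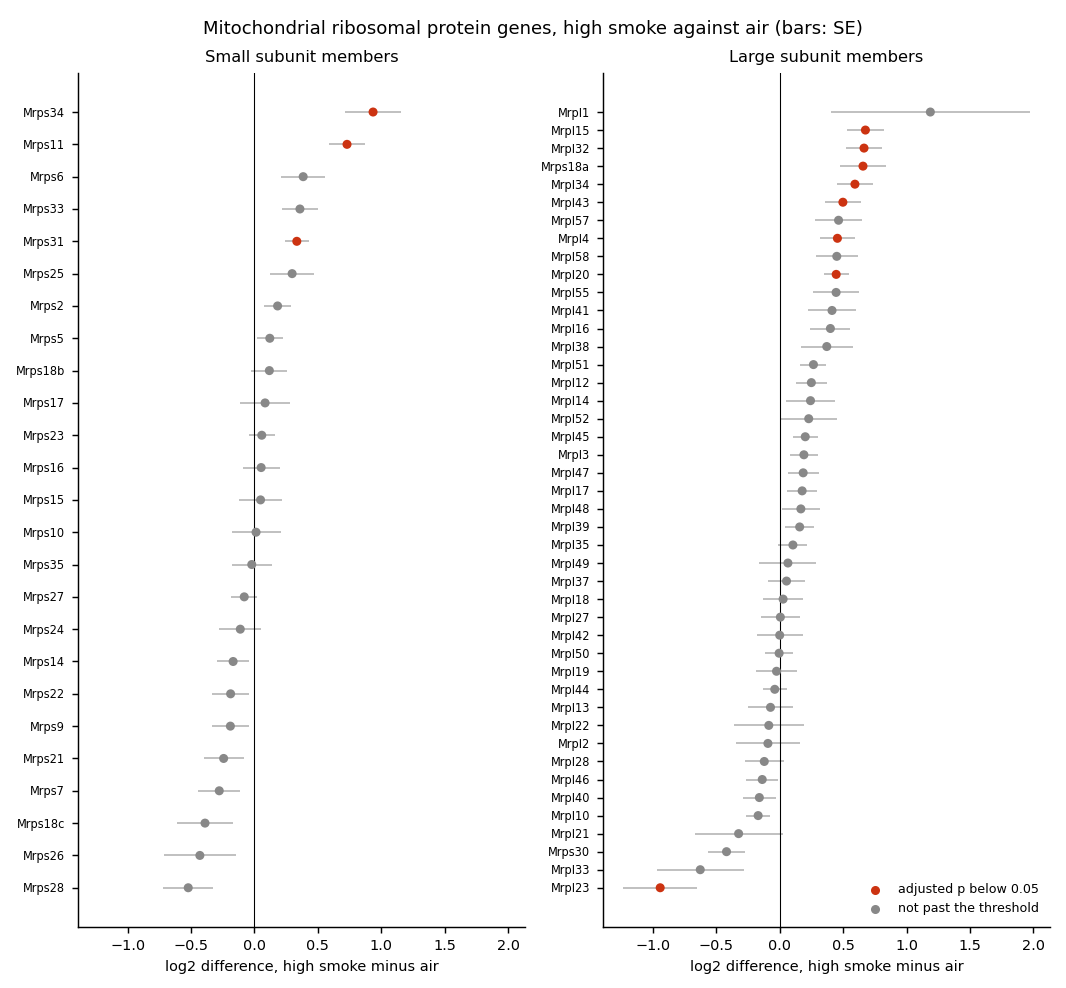
Log2 differences between high smoke and air for the 69 tested members of the small subunit (left) and large subunit (right), 1 point per gene with bars for the standard error from limma. Red points have an adjusted p below 0.05 and grey points do not. Mrps34 at 0.93 lies highest among the small subunit genes, and Mrpl23 at −0.94 lies lowest among the large subunit genes.

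The small subunit contributed 3 of its 25 tested members to the rises (12.0%), against 9.21% of all genes. Mrps34 (chr10:14257001-14258133 in rn6), a mitochondria-specific protein whose loss destabilizes the small subunit in mice and people, had 113.3, 189.2 and 429.4 normalized counts as the lowest, median and highest value in high smoke, against 95.06, 111.1 and 133.1 in air. All but 1 of the high smoke libraries lay above every air library, and replicates 3, 1 and 7 were far above the rest. The log2 difference was 0.93 (SE 0.22, adjusted p = 0.00613, limma).

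Mrps11 (chr1:140477868-140487249 in rn6), a protein of the platform of the small subunit with a relative in bacteria, had a lowest, median and highest value of 203.4, 278.4 and 427.3 normalized counts in high smoke and of 150.8, 184.2 and 236.9 in air. Here too 6 of 7 high smoke libraries exceeded the highest air library. It differed by 0.73 on the log2 scale (SE 0.14, adjusted p = 0.00182, limma), the lowest adjusted p among the members. Mrps31 (chr16:74467851-74496732 in rn6), a mitochondria-specific protein, had 385.5, 447.2 and 507.2 normalized counts in high smoke, against 307.3, 340.4 and 444.5 in air. The groups overlapped, with 4 of 7 high smoke libraries above the highest air library and 7 above the air median. Its log2 difference was 0.33 (SE 0.10, adjusted p = 0.0203, limma), and it did not pass without high smoke replicate 3.

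The large subunit contributed 7 rises (15.9%) and the single fall (2.27%) among its 44 tested members, against 9.21% and 7.05% of all genes. Mrpl15 (chr5:14609674-14620966 in rn6), which has a bacterial relative, had a lowest, median and highest value of 118.4, 188.7 and 198.6 normalized counts in high smoke and of 82.37, 99.03 and 122.4 in air. Only the lowest high smoke library lay within the air range. The log2 difference was 0.68 (SE 0.14, adjusted p = 0.00307, limma). Mrpl32 (chr17:53102534-53105401 in rn6), which in yeast and mice is trimmed by the m-AAA protease before it joins the ribosome, had 121.9, 149.2 and 210.8 normalized counts in high smoke, against 71.77, 97.19 and 145.9 in air. Of the high smoke libraries, 4 exceeded every air library. The difference was 0.67 on the log2 scale (SE 0.14, adjusted p = 0.00375, limma).

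Mrpl34 (chr16:19874034-19874769 in rn6), also with a bacterial relative, had 82.34, 111.8 and 148.1 normalized counts in high smoke, against 51.58, 74.3 and 90.72 in air. All high smoke libraries but 1 were above the air range, and the log2 difference was 0.59 (SE 0.14, adjusted p = 0.00611, limma). Mrps18a (chr9:17238385-17254950 in rn6), named for the small subunit but now placed in the large one, had 57.24, 73.93 and 143.2 normalized counts in high smoke, against 39.92, 47.36 and 72.96 in air. The highest high smoke value was replicate 1, and the next was 89.05. Its log2 difference was 0.66 (SE 0.18, adjusted p = 0.0158, limma).

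For Mrpl43 (chr1:264755538-264756547 in rn6), a mitochondria-specific protein, the values were 53.28, 89.08 and 109.2 normalized counts in high smoke, against 44.21, 61.77 and 75.76 in air. In 6 of 7 high smoke libraries the value lay above the air range, and in 1 it lay below the air median. The log2 difference was 0.50 (SE 0.14, adjusted p = 0.0176, limma). Mrpl4 (chr8:22021213-22027229 in rn6), part of the wall of the exit tunnel in the bacterial ribosome, had 108.3, 157.4 and 197.4 normalized counts in high smoke, against 80.52, 107.6 and 157.7 in air. The ranges overlapped over much of their length, with 3 of 7 high smoke libraries above the highest air library. Its log2 difference was 0.46 (SE 0.14, adjusted p = 0.0259, limma), and it no longer passed without high smoke replicate 1, 3 or 7 or air replicate 2 or 4, each left out alone. Mrpl20 (chr5:173248245-173252776 in rn6), with a bacterial relative, had 345.4, 426.1 and 527.0 normalized counts in high smoke, against 267.2, 324.8 and 398.6 in air. Of the 7 high smoke libraries, 4 were above the highest air value, and the log2 difference was 0.45 (SE 0.10, adjusted p = 0.00402, limma).

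Mrpl23 (chr1:215701544-215709314 in rn6), whose bacterial relative sits at the mouth of the exit tunnel, had 2.408, 9.541 and 11.83 normalized counts in high smoke, against 10.53, 14.81 and 22.24 in air. Every high smoke library was below the air median. Replicates 1, 3 and 7 averaged 3.93 and the other 4 averaged 10.8, which overlaps air. The log2 difference was −0.94 (SE 0.29, adjusted p = 0.0298, limma). Its mean over all libraries was 10.9, just above the filter of 10, which it passed through air and low smoke, with a mean of 7.85 in high smoke. It no longer passed without high smoke replicate 1, 3 or 7 or air replicate 1 or 4, each left out alone. Just inside the threshold with it was Mrpl4. Just outside were Mrps30, now placed in the large subunit (log2 difference −0.42, adjusted p = 0.0557), and Mrpl58, which frees chains from stalled mitoribosomes (0.45, adjusted p = 0.0634).

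**Figure D2:**
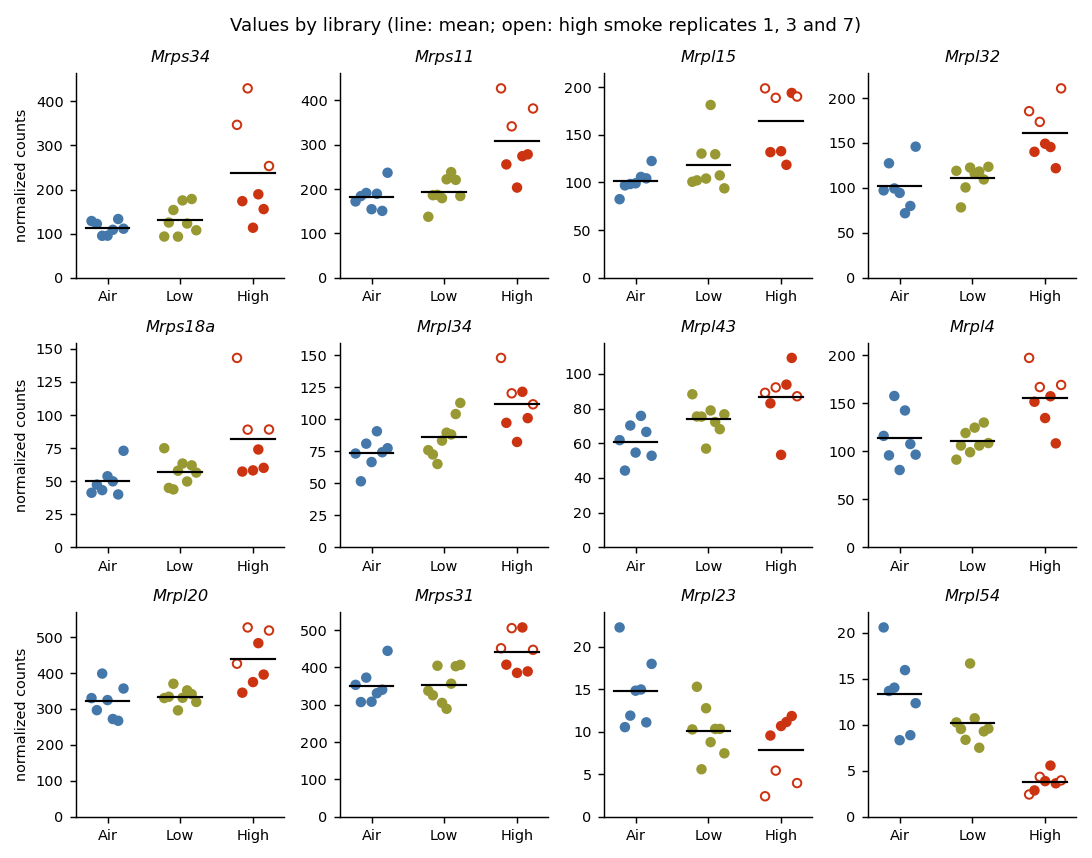
Normalized counts of the 10 genes that rose, of Mrpl23 and of Mrpl54 in each library of air, low smoke and high smoke, with the group mean as a line. Open points are high smoke replicates 1, 3 and 7. For Mrps34 these reach 429.4, while for Mrpl54 all 7 high smoke points lie between 2.42 and 5.57, below every other library.

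The rises were uneven over the high smoke rats. Replicates 1, 3 and 7 had scores of 51.5, 41.7 and 36.5 on the first principal component of all genes tested, which held 19.7% of the variance, while the other 4 high smoke libraries had scores of 0.305 to 8.77 and all air libraries were below 0. In those 3 libraries Mrps34 averaged 343.1 normalized counts, against 157.9 in the other 4 high smoke libraries. Mrps11 averaged 383.6 against 252.9 and Mrps18a 107.1 against 62.3 in the same comparison, while Mrpl43 at 89.4 against 84.8 and Mrps31 at 468.0 against 422.4 were closer together. Without the 3 libraries, none of the 10 genes passed in limma, while 0.681% of the 14394 genes then tested rose and 0.181% fell. The 10 log2 differences were then 0.27 to 0.49 with adjusted p of 0.103 to 0.408, all still above 0.

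**Figure D3:**
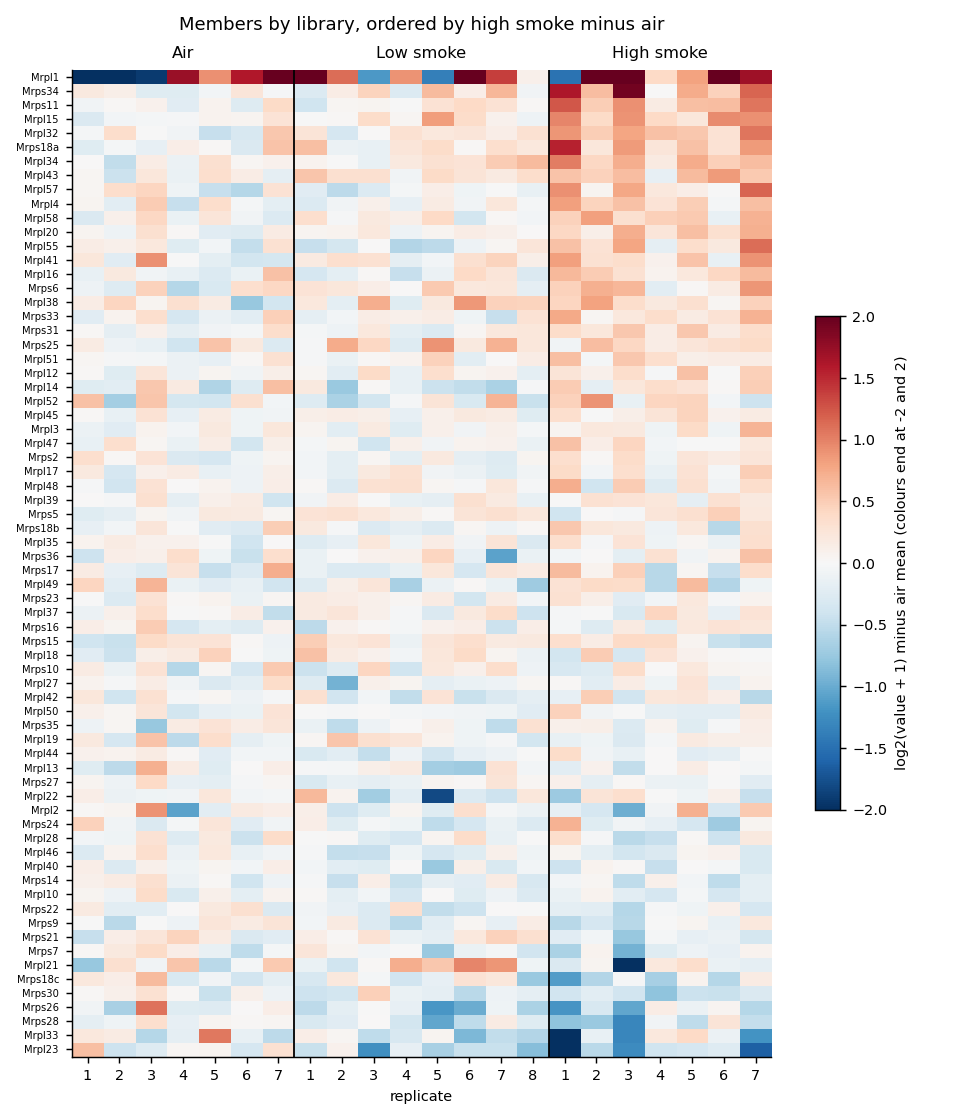
Every tested member (70 rows, ordered by the difference between high smoke and air) in each of the 22 libraries, as log2(value + 1) minus the mean of the air libraries. Mrpl1, the top row, varies from library to library and is strong red in some libraries of all 3 groups. Below it, the strongest red in the upper rows is in high smoke replicates 1, 3 and 7. There Mrps34, Mrps11 and Mrps18a reach 429.4, 427.3 and 143.2 normalized counts.

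Mrpl54 (chr7:11321057-11323578 in rn6), a mitochondria-specific protein of the large subunit, was the member whose groups separated. It had a mean below 10 and was not among the 14414 genes tested. The values in high smoke were 2.422, 3.875 and 5.565 normalized counts (lowest, median and highest), against 8.329, 13.68 and 20.59 in air. In low smoke they were 7.506, 9.566 and 16.67. No high smoke library reached the lowest air or low smoke library, a pattern seen downward in 0.442% of all 19249 rows against air and in 0.249% against low smoke. In the fit without a filter on level, in which 4.6% of genes fell, the log2 difference from air was −1.56 (SE 0.23, adjusted p = 0.000256, limma). From low smoke it was −1.22 (SE 0.22, adjusted p = 0.014, limma), where 1.7% of genes fell. Replicates 1, 3 and 7 averaged 3.57 normalized counts and the other 4 high smoke libraries 3.98. The values stand for 2.01 to 25.0 reads per library, so each is imprecise.

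The other members below the filter were Mrps12 and Mrpl53. Mrps12, whose bacterial relative helps set the accuracy of decoding, had 3.611, 7.633 and 13.56 normalized counts in high smoke, against 7.762, 9.255 and 13.96 in air. Mrpl53 ranged from near 0 to 11.29 in high smoke and from 0.0789 to 6.344 in air. Both genes overlapped between the groups. Its values are fractions of reads in most libraries, and its row overlaps Lbx2 on the same strand.

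By level, the share of members that rose was highest among those with a mean of at least 100 normalized counts, where 7 of 19 rose (36.8%) and 11.8% of all 9410 genes did. Between 50 and 100, 3 of 22 rose (13.6%), against 6.2% of 1903 genes. Between 10 and 50 none of 29 rose in limma and Mrpl23 fell, while 3.16% of 3101 genes rose. At an unadjusted p below 0.05 there were 7 of the 29 (24.1%), against 16.2% of all genes at that level. The standard error was also larger there, with a median of 0.23 over all genes, against 0.10 at a mean of at least 100. Members span short stretches of the genome, with a median of 6866 bases against 20750 for all genes tested. Below 5 kb, 5 of 24 members rose (20.8%), against 14.6% of all genes of that span. From 5 to 20 kb it was 4 of 35 (11.4%), against 11.3%, and above 20 kb it was 1 of 11 (9.09%), against 6.04%.

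**Figure D4:**
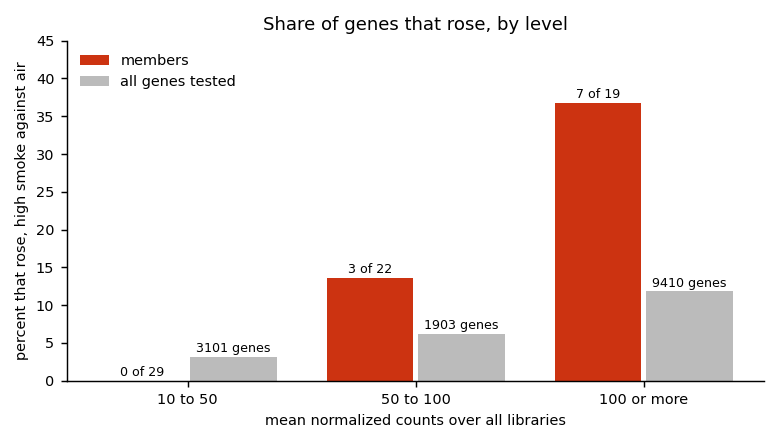
Percent of genes that rose in high smoke against air, for members (red) and all genes tested (grey), in 3 bands of the mean over the 22 libraries. Members rose in 0 of 29, 3 of 22 and 7 of 19 genes from the lowest band to the highest, and all genes in 3.16%, 6.2% and 11.8%.

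Summed over the family, the members held 6053, 6867 and 7634 normalized counts in high smoke libraries (lowest, median and highest), against 5370, 5727 and 6642 in air. In low smoke they held 5529, 5815 and 6231. The high smoke and air ranges overlapped. As a percent of the library total the values were 0.0604, 0.0686 and 0.0731 in high smoke and 0.0546, 0.0588 and 0.0725 in air. The large subunit had a median difference of 0.17 and the small subunit of 0.05, and the difference between the subunits was not tested. Among members with bacterial relatives, 5 of 25 in the large and 1 of 15 in the small subunit rose. Among the mitochondria-specific members, 2 of 19 and 2 of 10 did, while 9.21% of all genes tested rose in high smoke against air. Each class holds few genes that rose, and differences between the classes were not tested.

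In low smoke against air no member passed in limma, and none of the 14414 genes did (0%). No member had groups that did not overlap, as 0.0416% of all genes did. At an unadjusted p below 0.05 there were 4 members (5.71%), against 6.4% of all genes, and the exact Wilcoxon rank-sum test called 0 members and 0 genes. The sign was above air in 28 members and below in 42, with a median of −0.04. The smallest p belonged to Mrpl44, a protein with an RNase III fold, which had 127.4, 156.1 and 176.8 normalized counts in low smoke, against 151.5, 180.5 and 197.7 in air (log2 difference −0.22, adjusted p = 0.724, limma). The groups overlapped. Mrps5, Mrps25, Mrpl43 and Mrpl23 followed, with differences of 0.22, 0.36, 0.29 and −0.52 and adjusted p of 0.763 to 0.791. Of the 10 genes that rose in high smoke, Mrps34 had 93.18 to 178.5 normalized counts in low smoke and Mrps11 had 137.5 to 238.3, and both ranges covered that of air.

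In high smoke against low smoke, 10 members rose (14.3%) and none fell, while 3.8% of all genes rose and 2.98% fell. At an unadjusted p below 0.05 there were 18 members (25.7%), against 25.6% of all genes. The exact Wilcoxon rank-sum test called 0 members and 1.27% of all genes. Mrps11, Mrpl20, Mrpl32, Mrps34, Mrpl4, Mrps31 and Mrpl15 were among the 10, and Mrpl55, Mrpl57 and Mrpl16 completed them. Both comparisons use the same high smoke libraries. No member had high and low smoke values that did not overlap, against 0.694% of all genes. Mrpl55, with a bacterial relative by current naming, had 30.03, 43.72 and 75.2 normalized counts in high smoke, against 22.56, 29.32 and 40.47 in low smoke. The ranges overlapped, and the log2 difference was 0.66 (SE 0.18, adjusted p = 0.0313, limma). For Mrps11 it was 0.64 (SE 0.14, adjusted p = 0.0167, limma). No member passed without high smoke replicate 1, 3 or 7, each left out alone. Over all genes, 27, 34 and 21 then rose and 8, 17 and 8 fell, in place of 548 and 429. Without low smoke replicate 1, 2 or 4, 2 members passed each time, while 200, 191 and 242 of all genes rose and 116, 105 and 157 fell. Without low smoke replicate 3 or 8, 5 members passed, while 315 and 424 of all genes rose and 235 and 315 fell. Without low smoke replicate 6, 6 members passed, while 399 of all genes rose and 274 fell.

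Members differed in how much they varied among the air rats. The SD of log2 values was smallest for Mrpl44, Mrpl22 and Mrpl51 at 0.125, 0.128 and 0.15, and largest for Mrpl1, Mrpl2 and Mrpl33 at 2.08, 0.585 and 0.551. Mrpl1 had 1.037 to 47.95 normalized counts in air, 2.942 to 52.88 in low smoke and 2.623 to 62.23 in high smoke. Its difference of 1.19 from air in high smoke had a standard error of 0.79 (adjusted p = 0.317, limma). Of the 73 members, 63 had values within 0.02 of a whole number of reads in all 22 libraries. The other 10 include Mrpl1, which was whole in 2 libraries. Across the 22 libraries, the deviations of 2 members from their group means had a median Pearson r of 0.103 over the 2415 pairs, against −0.002 for pairs of all genes tested. These are a description, since all pairs share the same libraries. How the counting shared reads among overlapping or similar genes is not given in the sources used here.

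Several members start within 300 bases of a gene transcribed the other way, which was so for 16 of the 73, among them 4 of the 10 that rose. The share of all genes with such a neighbour was not computed, so these counts have no baseline. Of the 16 neighbours, 2 passed in high smoke against air, Eme2 and the member Mrps11, while 16.3% of all genes tested passed. Mrps34 and Eme2, a subunit of a DNA structure-specific nuclease, start 70 bases apart and both rose, Eme2 by 0.38 (SE 0.10, adjusted p = 0.016, limma). Mrps11 starts 71 bases from Mrpl46 by the rn6 coordinates of the table, and 234 bases from it by the RefSeq starts in GRCr8. Mrpl46 is a member of the large subunit that had 46.63, 52.47 and 63.69 normalized counts in high smoke, against 49.42, 57.25 and 76.7 in air. The Mrpl46 ranges overlapped, and its log2 difference was −0.14 (SE 0.13, adjusted p = 0.487, limma). Mrpl43 overlaps the start of Twnk, the mitochondrial DNA helicase, by 48 bases, and Twnk had a difference of 0.05 (adjusted p = 0.758, limma). Mrpl32 starts 191 bases from the proteasome gene Psma2 (0.05, adjusted p = 0.933). Whether the counting used strand is not given in the sources used here, so reads from Mrpl43 and Twnk, or from Mrps18a and Rsph9, which also overlap, cannot be told apart.

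**Figure D5:**
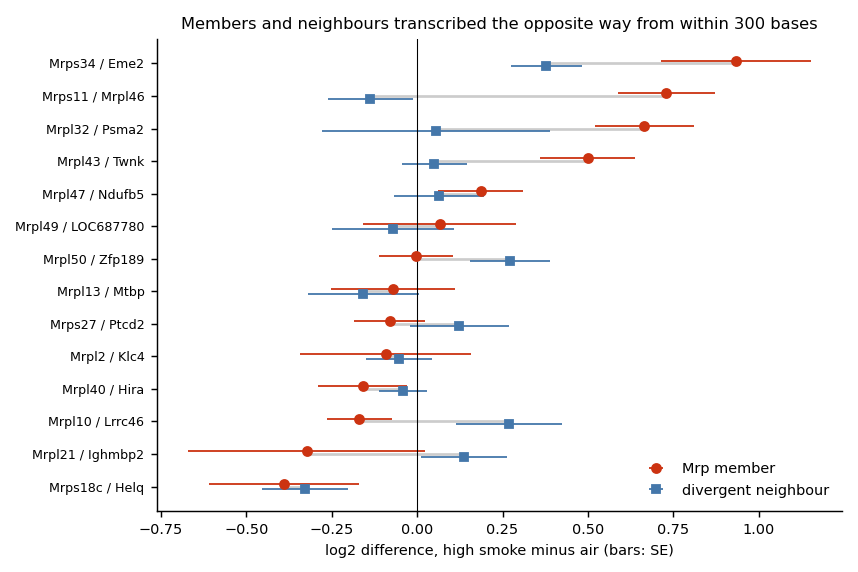
Log2 differences between high smoke and air, with standard errors, for 14 members (red circles) and the neighbours that start within 300 bases and run the other way (blue squares). Mrps34 and Eme2 both lie above 0 at 0.93 and 0.38, while Mrps11 at 0.73 and Mrpl46 at −0.14 lie on either side of 0.

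The promoters of 58 members were found among the RefSeq windows of the GRCr8 build, which run from 250 bases before to 50 after each start and gave 60 windows, 7 of them of genes that rose. Each window was searched on both strands for GCATGCGC (NRF1), CCGGAAG (ETS factors such as GABP) and AAGATGGC (YY1), motifs of factors known to act at nuclear genes for mitochondrial proteins, chosen after promoters had been seen. An NRF1 match was in 8.33% of the member windows, against 4.72% of the windows of all genes tested and 2.47% of all windows. An ETS match was in 31.7%, against 16.0% and 8.75%, and a YY1 match in 23.3%, against 4.94% and 3.17%. Any of the 3 was in 51.7%, against 23.3% and 13.3%, and in 5 of the 7 windows of genes that rose. A match is a description of the letters, not a site. The divergent pair Mrps11 (chr1:142117014-142117313, plus strand) and Mrpl46 (chr1:142116981-142117280, minus strand) share 267 bases of their windows. Of the pair, Mrps11 rose and Mrpl46 did not pass. They are shown with Mrpl32 (chr17:55260401-55260700, plus strand), Mrps18a (chr9:22367331-22367630, minus strand) and Mrpl20 (chr5:171690948-171691247, plus strand), which rose and hold matches of different kinds. Capitals mark the matches on either strand.
Mrps11: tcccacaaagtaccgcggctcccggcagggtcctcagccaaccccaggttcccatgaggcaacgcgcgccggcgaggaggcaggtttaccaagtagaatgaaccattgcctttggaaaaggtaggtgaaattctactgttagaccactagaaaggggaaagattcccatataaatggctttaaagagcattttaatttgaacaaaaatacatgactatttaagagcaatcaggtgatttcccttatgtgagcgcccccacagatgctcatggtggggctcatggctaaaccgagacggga
Mrpl46: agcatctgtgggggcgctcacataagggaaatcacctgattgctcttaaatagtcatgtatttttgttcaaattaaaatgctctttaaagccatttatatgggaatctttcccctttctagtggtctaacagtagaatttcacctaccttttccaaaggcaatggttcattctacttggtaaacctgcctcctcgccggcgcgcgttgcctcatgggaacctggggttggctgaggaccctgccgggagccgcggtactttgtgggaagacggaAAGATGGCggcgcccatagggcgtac
Mrpl32: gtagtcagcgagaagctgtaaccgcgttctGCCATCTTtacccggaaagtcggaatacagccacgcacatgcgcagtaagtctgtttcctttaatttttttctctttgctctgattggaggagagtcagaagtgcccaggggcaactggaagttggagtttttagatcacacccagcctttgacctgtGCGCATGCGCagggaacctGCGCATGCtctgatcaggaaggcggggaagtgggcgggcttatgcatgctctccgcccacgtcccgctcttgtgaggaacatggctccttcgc
Mrps18a: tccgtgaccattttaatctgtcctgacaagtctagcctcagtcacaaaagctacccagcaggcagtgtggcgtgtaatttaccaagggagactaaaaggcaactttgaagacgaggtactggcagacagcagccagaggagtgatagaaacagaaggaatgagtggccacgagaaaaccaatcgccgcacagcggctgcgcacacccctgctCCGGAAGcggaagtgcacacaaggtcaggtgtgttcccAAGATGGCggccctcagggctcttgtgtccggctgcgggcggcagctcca
Mrpl20: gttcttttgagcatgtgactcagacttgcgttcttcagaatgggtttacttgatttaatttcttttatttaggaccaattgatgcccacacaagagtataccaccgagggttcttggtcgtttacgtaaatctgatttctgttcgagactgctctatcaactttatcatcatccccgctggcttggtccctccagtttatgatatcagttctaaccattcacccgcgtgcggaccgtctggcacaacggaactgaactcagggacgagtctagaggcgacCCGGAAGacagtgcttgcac
The Mrps11 window holds none of the 3 motifs and that of Mrpl46 holds YY1. Mrpl32 holds 3 matches of NRF1, 2 of them overlapping, and 1 of YY1. Mrps18a holds ETS and YY1, and Mrpl20 holds ETS.

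Of 94 tested genes in 6 lists of the mitoribosome's surroundings, 6 rose (6.38%) and 7 fell (7.45%) in high smoke against air, against 9.21% and 7.05% of all genes. Of 27 assembly and RNA modification factors, 2 rose, Mpv17l2 by 0.43 (adjusted p = 0.0496, limma) and the RNA chaperone Eral1 by 0.25 (adjusted p = 0.0475, limma). Of 14 translation factors, the elongation factor Tufm rose by 0.40 (adjusted p = 0.00387, limma), the release factor Mtrf1l rose by 0.46 (adjusted p = 0.0208, limma) and Gfm2, which recycles ribosomes, fell by 0.41 (adjusted p = 0.0146, limma). The medians of these lists were 0.06 and 0.01. None of 5 mitoribosome proteins without an Mrp name, Dap3 and Chchd1 among them, passed in limma, and Chchd1 had the smallest p (0.35, adjusted p = 0.0512). At an unadjusted p below 0.05 there were 2 of the 5.

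The counts in the lists that follow stand beside 9.21% of all genes that rose and 7.05% that fell in high smoke against air. Of 20 aminoacyl-tRNA synthetase genes, which charge the mitochondrial tRNAs, Iars2 fell by 0.26 (adjusted p = 0.0272, limma) and Lars2 fell by 0.34 (adjusted p = 0.037, limma), with a list median of 0.08. Of 19 genes for mitochondrial DNA upkeep and transcription, Hsd17b10 and Polg rose, by 0.46 and 0.26, and Trmt10c and Mterf1 fell, by 0.41 and 0.28, with a list median of 0.05. Of 9 factors known to drive mitochondrial biogenesis, none rose, Esrra fell by 0.56 (adjusted p = 0.0149, limma) and Gabpb1, a subunit of the ETS factor GABP, fell by 0.27 (adjusted p = 0.0263, limma). Nrf1 had a difference of 0.09 (adjusted p = 0.492, limma) and Yy1 of −0.10 (adjusted p = 0.551, limma), which was also the median of the 9.

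Of the transcripts that the mitoribosome translates, some fell. Of 13 protein-coding transcripts of the mitochondrial genome, 5 fell, Mt-atp8, Mt-nd2, Mt-atp6, Mt-nd4 and Mt-nd4l, and none rose, with a median of −0.31. Of all genes tested, 7.05% fell. The 13 summed to 79200, 134700 and 156100 normalized counts in high smoke (lowest, median and highest), with the lowest in replicate 1. In air they summed to 113900, 135300 and 153800, so the sums overlapped and had similar medians. The rows annotated as mitochondrial ribosomal RNA had differences of 0.02 (adjusted p = 0.968, limma) and −0.16 (adjusted p = 0.464, limma). Among the lower-case rows, mrpl24 rose by 0.37 (adjusted p = 0.0229, limma), and mrpl9 at 0.37 (adjusted p = 0.0747) and mrpl11 at 0.15 (adjusted p = 0.406) did not pass.

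Markers of lung cell types stood beside these changes, and their part in them was not tested. Marker counts are for high smoke against air, where 9.21% of all genes rose and 7.05% fell. Of 8 alveolar type 2 markers 2 rose and 6 did not pass, with a median log2 difference of 0.06. Their sum was 282000 to 347600 normalized counts in high smoke, against 230600 to 291300 in air and 220600 to 306800 in low smoke, and the ranges overlapped. High smoke replicates 1, 3 and 7 had 310900, 343100 and 347600, and the other 4 high smoke libraries had at most 303900. The alveolar type 1 markers summed to 64380, 59830 and 59770 in those 3 replicates and to at most 56270 in the other 4. Their sums were 45060 to 54070 in air and 47760 to 63090 in low smoke. Endothelial markers summed to 27430, 29240 and 27590 in those 3 replicates, against 28450 to 34800 in the other 4. Red cell genes summed to 14590, 9066 and 10990, against 7092 to 10150. Of 6 alveolar type 1 markers 2 rose, and of 5 red cell genes 2 rose, with sums of 7092 to 14590 in high smoke, against 4824 to 7148 in air. Of 6 ciliated cell markers 1 fell, and of 5 macrophage markers 1 fell. Of 6 endothelial markers 1 rose and 1 fell, and of 6 fibroblast and smooth muscle markers 2 rose. No marker of secretory cells, neutrophils, fat or dividing cells passed against air, and only 1 fat marker was tested. That fat marker differed by 0.63 from air and rose by 1.02 against low smoke. Of 7 B and T cell markers 1 rose, with a sum of 604 to 1661, against 287 to 958. Heart muscle genes of the pulmonary veins, a tissue rich in mitochondria, summed to 180.5 to 1399 in high smoke, against 138.4 to 1676 in air, with 0 of 9 past the threshold in limma and 0 at an unadjusted p below 0.05. The sum in high smoke replicates 1, 3 and 7 was 219.3, 1058 and 912.9. No marker found was at 0 in every library.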

How the data were processed

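RNA sequencing libraries from the lungs of 22 rats were analysed. Per the submitters' processing notes, the authors aligned reads with STAR 2.7.3a to rn6 and used Partek and DESeq2. The deposited unit is signal, which from the values is a count per gene scaled by 1 factor in each library. Of the values under 200 reads, 80.7% to 82.8% were within 0.02 of whole reads, so no count model was used. Depth was 8484131 to 12055527 read equivalents per library. No interval for counting error was computed, and precision is lowest for genes with few reads. The labels list 23 samples, and 1 high smoke sample without a column was not analysed here. For a library lost to low quality, the protocol names air and a sample's own label names high smoke. Of the 24 rats randomized, 8 were planned per group. Air had 7 labelled samples and 7 libraries, and high smoke had 8 labelled samples and 7 libraries.

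Values were transformed to log2(value + 1), which understates changes of low genes. Genes with a mean of at least 10 were tested in 1 limma 3.58.1 model of the 3 groups (trend on, robust off, R 4.3.3), two-sided, with Benjamini-Hochberg adjustment over 14414 genes. The model was also run on simulated data with independent noise for each gene. That simulation held no shift shared by high smoke replicates 1, 3 and 7, so it cannot show how the model behaves with one. The members, lists and alternatives were chosen with earlier results of these data known, among them that high smoke replicates 1, 3 and 7 stood apart. Named members are those past the threshold in high smoke against air, those with the smallest p in the other comparisons, the steadiest and most variable in air, those below the filter and those nearest the threshold. Genes named beside these as pairs, context or examples were chosen after their values were seen. Alternatives changed the pseudocount, filter, scaling, spread estimate, test and libraries.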

Additional observations from a re-analysis of the deposited data

Results flagged for a closer look

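In 8 of the 75 sets of values looked at (a named member in 1 group), the highest library stood apart from the others of its group. The nominal rate of such a flag is about 1 in 20. Some members were named for their spread in air and the sets share libraries, so the 8 cannot be weighed against that rate. In high smoke, replicate 1 had 143.2 normalized counts of Mrps18a, with the next library at 89.05, and 228.7 of Mrpl44, with the next at 178.2. In low smoke, replicate 5 had 181.2 of Mrpl15 (next 130.2), replicate 4 had 16.67 of Mrpl54 (next 10.71) and replicate 3 had 57.67 of Mrps30 (next 38.18). In air, replicate 7 had 72.96 of Mrps18a (next 53.68) and 517.5 of Mrpl51 (next 432.4), and replicate 5 had 31.9 of Mrpl33 (next 17.3).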

How the results depend on the processing

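No paired analysis was possible because no label ties a replicate number in 1 group to another group. In high smoke against air, 11 members passed, 3 (4.29%) with the exact Wilcoxon rank-sum test (Mrpl15, Mrpl34 and Mrps11), against 5.18% of all genes, and 1 (1.41%) without high smoke replicates 1, 3 and 7 together, against 0.861% of all genes. That 1 is Mrpl54, which passes the level filter there only because 3 low libraries are left out. Leaving out 1 library gave 8 to 15 members (11.4% to 21.4%), against 10.1% to 19.9% of all genes, and the other alternatives gave 8 to 12 (11.4% to 24.4%), against 9.37% to 20.2%. In high smoke against low smoke, 10 passed, 5 with array weights (7.14%, against 4.68% of all genes), 0 with the Wilcoxon test (against 1.27%) and 0 without the 3 libraries, as over all genes, and leaving out 1 library gave 0 to 11 (up to 15.7%, against 0.201% to 11.5% of all genes). In low smoke against air no setting gave a member call. The cause of these changes was not tested. Of the 10 rises against air, Mrpl4 lost its call in 9 of 34 alternatives, Mrps31 in 4 and Mrpl43 in 3, while Mrps11, Mrpl15 and Mrpl34 lost it in 1. Mrpl23 lost its call in 8 of 33.

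Some differences of named members that did not pass changed sign, given here as log2 differences. In high smoke against air, Mrpl22 (−0.09 as reported) was 0.066 without the 3 libraries and −0.16 to 0.023 with 1 left out, Mrpl2 (−0.09) was 0.057 with array weights and −0.27 to 0.058 with 1 left out, and Mrpl33 (−0.63) was 0.086 without the 3. In low smoke against air, Mrpl4 (−0.02) was 0.050 with array weights and −0.092 to 0.068 with 1 left out. Mrps31 (0.01) was −0.025 with the same total and −0.021 to 0.068 with 1 left out, Mrpl51 (0.04) was −0.016 to 0.092, and Mrpl2 (−0.07) was 0.070 with array weights and −0.25 to 0.083 with 1 left out. In high smoke against low smoke without the 3 libraries, Mrpl23 (−0.43) was 0.13, Mrps5 (−0.10) was 0.041, Mrpl2 (−0.02) was 0.059 and Mrpl33 (−0.31) was 0.41. With 1 left out, Mrps25 (−0.07) was −0.16 to 0.011 and Mrpl2 was −0.16 to 0.12. Depth limits Mrpl54, Mrpl23 and other members with few reads most.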
